A study of Homo sapiens with 4 samples.

Results

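Of 10 genes for chemokines that attract lymphocytes or monocytes, 5 were detected in MIA PaCa-2 cells, and among these CCL22 and CX3CL1 were higher after IL-1β, CXCL16 was slightly higher, and CCL5 and CXCL10 were at or slightly below the control level. The genes were CCL22, CCL20, CCL2, CCL5, CCL17, CX3CL1, CXCL16, CXCL10, CXCL11 and CXCL12, out of 18665 named genes on the array. Every probe listed for these symbols in the array's probe-to-gene table was taken, which gave 14 of 48803 probes. The genes were chosen with the difference between IL-1β and control cells in these data known, so their own differences are given as a description and not as a test.

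MIA PaCa-2 is a human line, long established in culture, from a carcinoma of the pancreas, grown here in medium with fetal bovine serum. The control group held 2 untreated samples, and the treated group held 2 samples kept for 36 h with IL-1β at 2 ng/ml. Each sample was hybridised to 1 Illumina WG-6 v3 bead chip array. No label ties the samples to independent cultures, and the spread within a group may therefore be technical; the line is a single cell line in culture without the leukocytes that chemokines act on.

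Chemokines are small secreted proteins that bind G-protein-coupled receptors on leukocytes and set the direction of their migration. Their families are named by the spacing of the cysteines near the start of the mature protein (CC, CXC and CX3C). IL-1β binds the IL-1 receptor and activates NF-κB, a family of transcription factors that binds the promoters of many chemokine genes, and carcinoma cells are among the known sources of these ligands in the pancreas. CXCL10 and CXCL11 are best known as targets of interferons, which act through STAT and IRF factors.

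A probe was called detected on an array where its deposited detection p-value was below 0.01, and 12740 to 13157 probes (26.1% to 27.0%) were detected per array. Raw intensity averaged 527 and 549 over the probes of the controls, against 482 and 449 with IL-1β, so raw values of the groups are not on the same footing, and normalized log2 intensities were compared. The keratins KRT8, KRT18 and KRT19 were detected on all 4 arrays, and the epithelial markers EPCAM and CDH1 on none. The 3 keratins, each read by its brightest tested probe, were lower with IL-1β without overlap, at log2 differences of -0.21, -0.24 and -0.20. Of all probes tested, 25.2% were lower without overlap. The other tested probe of KRT18 lay at -0.14. Adjusted p-values of the 3 keratins in limma ran from 0.269 to 0.430, and their part in the results was not tested. Of 6 fibroblast markers COL1A2 was detected, on all 4 arrays, and of 5 endothelial markers CDH5 was detected on all 4 arrays and PECAM1 on 1. Of 23 leukocyte, lymphocyte, monocyte and dendritic cell markers, 22 had a probe and 3 were detected on any array. These were CD79B and CD83, on all 4 arrays, and CD14, on 2. The mean raw intensity over their 42 probes was 181 to 195 on the control arrays and 167 to 181 on the IL-1β arrays, and PTPRC and the CD3 genes, which define leukocytes and T cells, were detected on no array. In RNA of a whole culture, more expressing cells and more RNA per cell cannot be told apart.

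Promoter sequence was at hand for 5 of the 10 genes, from RefSeq on GRCh38.p14, and 3 promoters are printed because their genes stand for the 3 outcomes on the array, which were a higher gene, a detected gene at the control level and a gene not detected. Each run holds the 250 bases before the start that the promoter table uses, 5′ to 3′ on the gene's strand. For CCL22 that start lies inside the span given for the gene below, so the printed run is downstream of the outermost annotated start. Capitals mark matches on either strand to the loose κB pattern, which is 3 G bases, any 5 bases and 2 C bases, or to the interferon response pattern, which is GAAA, any 2 bases and GAAA.
CCL22 (chr16:57358533-57358782, plus strand): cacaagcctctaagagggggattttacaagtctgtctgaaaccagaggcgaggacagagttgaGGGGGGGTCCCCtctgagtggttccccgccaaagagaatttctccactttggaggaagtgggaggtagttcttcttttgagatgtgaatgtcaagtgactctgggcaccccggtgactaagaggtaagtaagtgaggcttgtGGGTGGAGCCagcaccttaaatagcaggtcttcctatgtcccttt
CXCL10 (chr4:76023498-76023747, minus strand): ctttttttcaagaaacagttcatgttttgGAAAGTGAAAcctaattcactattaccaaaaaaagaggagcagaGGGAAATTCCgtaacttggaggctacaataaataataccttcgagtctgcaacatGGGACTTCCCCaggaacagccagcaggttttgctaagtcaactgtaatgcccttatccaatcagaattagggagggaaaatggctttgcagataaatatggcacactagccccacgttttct
CCL20 (chr2:227813592-227813841, plus strand): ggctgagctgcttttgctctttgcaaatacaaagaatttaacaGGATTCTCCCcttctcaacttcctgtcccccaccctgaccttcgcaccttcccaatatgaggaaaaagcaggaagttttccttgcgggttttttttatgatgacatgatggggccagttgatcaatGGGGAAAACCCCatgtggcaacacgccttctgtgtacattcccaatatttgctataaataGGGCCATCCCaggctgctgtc
CCL22 held 4 matches to the loose κB pattern, of which 3 overlap in the run of G bases between 187 and 176 bases before the start. CXCL10 held 3 and CCL20 held 5, and in each of these 2 genes some matches overlap on opposite strands. The loose pattern was found in 54.4% of 35116 promoter windows of the same length, and the stricter κB consensus in 5.21% of them. The consensus had 1 match in CCL22, 1 in CCL20, 2 in CXCL10, 1 in CXCL11 and 0 in CXCL12. The interferon response pattern, found in 3.02% of windows, had 1 match in CXCL10 and none in the other 4. The STAT pattern TTCNNNGAA, found in 6.57%, had 1 match in CXCL11 and none in the other 4. A match is a description of letters, and no match says only that these letters are not in this window.

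The ligands of CCR4, a receptor of Th2 and regulatory T cells, are CCL22 and CCL17. CCL22 (chromosome 16, 57357909 to 57366189 on GRCh38.p14) had raw intensities of 1369 and 1394 in the controls and 2371 and 2159 with IL-1β. Its normalized log2 intensities were 10.14 and 10.08 in the controls and 11.24 and 11.22 with IL-1β. Both IL-1β arrays lay above both control arrays, and the arrays of a group differed far less than the groups did. The group means were 10.11 ± 0.05 and 11.23 ± 0.01 (SD, n = 2), which made CCL22 2.17-fold higher (95% confidence interval 1.84 to 2.55). This difference was the 8th highest of 13152 probes tested.

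CCL17 (chromosome 16, 57396093 to 57416063) was detected on no array. Its raw intensities were 143 and 172 in the controls and 164 and 160 with IL-1β, with detection p-values from 0.125 to 0.909. The groups overlapped, and no fold is given for this or any other probe that was detected on no array.

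**Figure D1:**
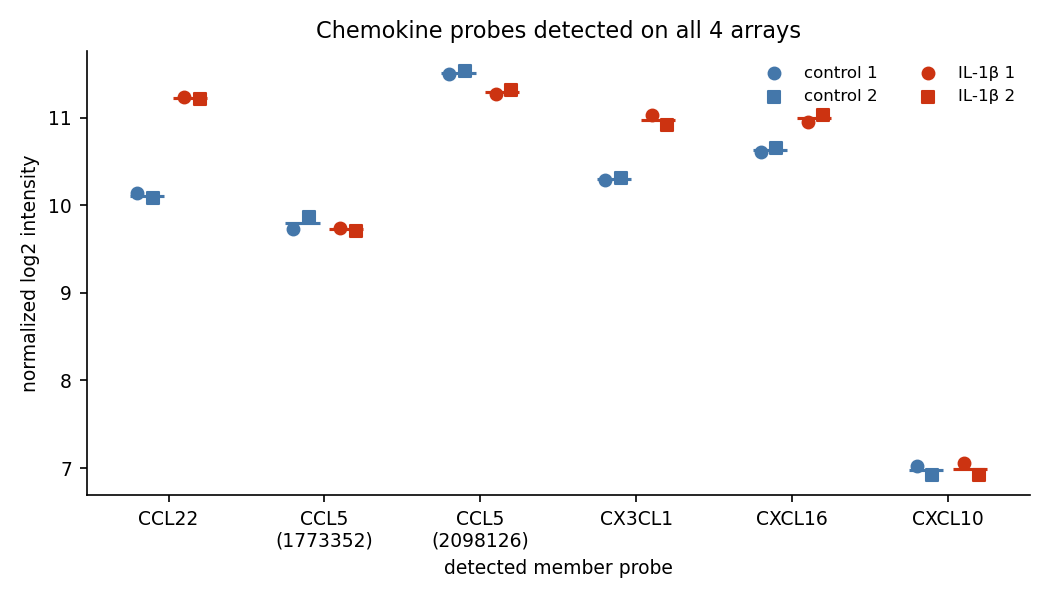
Normalized log2 intensity (vertical axis) of the 6 chemokine probes detected on all 4 arrays, with controls in blue, IL-1β in red and a line at each group mean (n = 2). The red points of CCL22, CX3CL1 and CXCL16 lie above the blue ones, those of CCL5 probe ILMN_2098126 lie below, and the groups overlap for the other CCL5 probe and for CXCL10.

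CX3CL1 and CXCL16 are the chemokines made as transmembrane proteins with a mucin-like stalk, which hold CX3CR1- or CXCR6-bearing cells at the surface and are shed by proteases. CX3CL1 (chromosome 16, 57372490 to 57385044), also called fractalkine, had raw intensities of 1511 and 1609 in the controls and 2084 and 1770 with IL-1β. Its normalized log2 intensities were 10.29 and 10.31 in the controls and 11.03 and 10.91 with IL-1β. The groups did not overlap, and CX3CL1 was 1.59-fold higher with IL-1β (95% confidence interval 1.34 to 1.88), with group means of 10.30 ± 0.01 and 10.97 ± 0.09 (SD, n = 2). It was the 112th highest of the 13152 probes.

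CXCL16 (chromosome 17, 4733533 to 4739928), which binds CXCR6 on T cells and natural killer T cells, had raw intensities of 1846 and 1986 in the controls and 1980 and 1918 with IL-1β, which overlap. After normalization the log2 intensities were 10.61 and 10.65 in the controls and 10.95 and 11.03 with IL-1β, and the groups no longer overlapped. CXCL16 was then 1.28-fold higher with IL-1β (95% confidence interval 1.09 to 1.51). The higher level of CXCL16 thus appears only relative to the other probes of each array, while CCL22 and CX3CL1 were also apart in the raw values.

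CCL5 and CCL2 attract monocytes and T cells, and CCL2 acts through CCR2. CCL5 (chromosome 17, 35871491 to 35880360) was read by 2 probes, both detected on all 4 arrays. Probe ILMN_2098126 had raw intensities of 3299 and 3529 in the controls and 2431 and 2324 with IL-1β, and normalized log2 intensities of 11.49 and 11.53 against 11.27 and 11.32. It was 1.16-fold lower with IL-1β, with an interval from 1.36-fold lower to 1.01-fold higher, and the groups did not overlap.

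The other CCL5 probe, ILMN_1773352, had raw intensities of 1062 and 1230 in the controls and 929 and 843 with IL-1β. Its normalized log2 intensities were 9.73 and 9.87 in the controls and 9.74 and 9.71 with IL-1β, so the groups, apart in the raw values, overlapped. It was 1.05-fold lower with IL-1β, with an interval from 1.25-fold lower to 1.13-fold higher. Neither probe of CCL5 was higher after IL-1β, and both intervals include no difference. CCL2 (chromosome 17, 34255285 to 34257203) was detected on no array, with raw intensities of 163 and 175 in the controls and 177 and 165 with IL-1β.

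CCL20 (chromosome 2, 227813842 to 227817556), the ligand of CCR6 on Th17 cells and immature dendritic cells, was not detected on any array at a detection p below 0.01. Its raw intensities were 189 and 200 in the controls, with detection p-values of 0.0277 and 0.0343, and 149 and 158 with IL-1β, with detection p-values of 0.784 and 0.175. The control values were thus the higher ones and lay just below the lowest intensity called detected on those arrays, 214 and 234. A difference at this brightness could not be measured.

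CXCL10 and CXCL11 are ligands of CXCR3, a receptor of activated T cells and natural killer cells. CXCL9, the other classical ligand of this receptor, is not among the 10 genes and was detected on no array. CXCL10 (chromosome 4, 76021118 to 76023497) was detected on all 4 arrays, but dimly, with raw intensities of 280 and 294 in the controls and 268 and 236 with IL-1β. Its normalized log2 intensities were 7.03 and 6.92 in the controls and 7.06 and 6.92 with IL-1β. The raw values of the IL-1β arrays were the lower ones and did not overlap with the controls, while the normalized groups overlapped. CXCL10 was 1.01-fold higher with IL-1β (95% confidence interval 0.845 to 1.22), and the sign turned under other scalings. CXCL11 (chromosome 4, 76033682 to 76036070) was read by 2 probes, neither detected on any array, with raw intensities from 141 to 178 over all arrays.

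CXCL12 (chromosome 10, 44370165 to 44385097), the ligand of CXCR4 and ACKR3 and a chemokine of stromal cells, was read by 3 probes. None was detected on any array, and their raw intensities lay between 148 and 172.

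**Figure D2:**
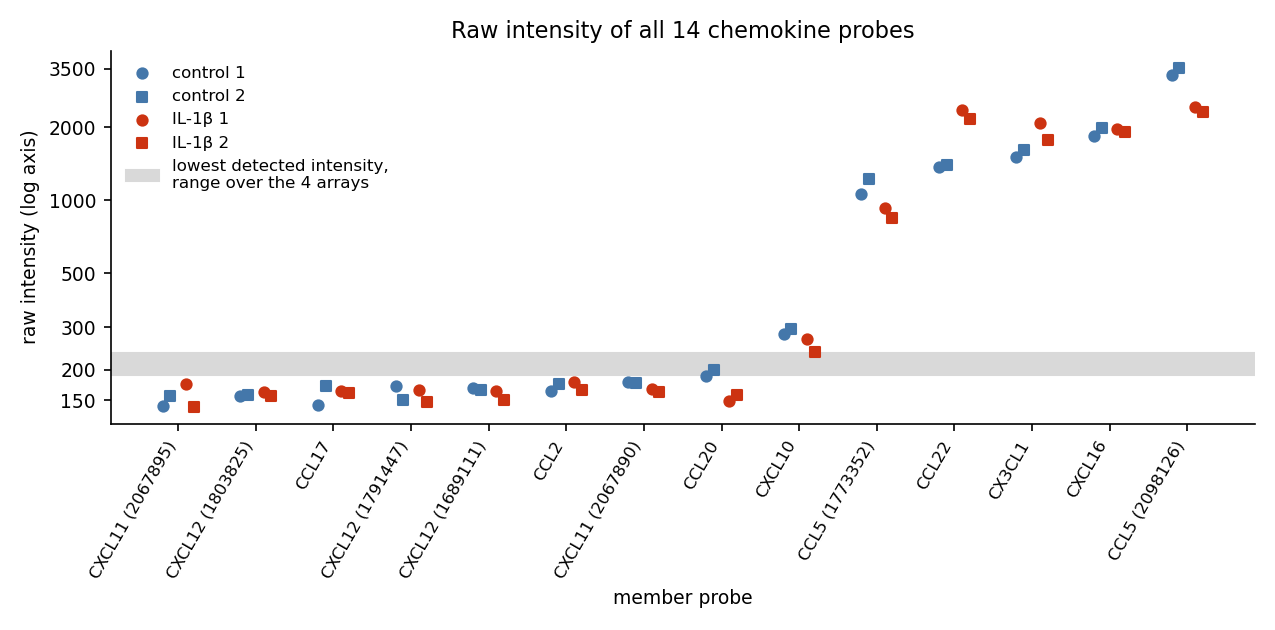
Raw intensity (log axis) of all 14 probes on each array, with controls in blue and IL-1β in red. The 8 probes on the left lie at or below the grey band, which spans the lowest detected intensity of the 4 arrays (190 to 234), CXCL10 lies at or just above it and the other 5 far above it.

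In all, 6 of the 14 probes passed the filter on dim probes, and they were detected on all 4 arrays, so none passed through 1 group alone. Of these 6, 4 were higher and 2 lower with IL-1β, with a median log2 difference of 0.19, while 49.7% of all probes tested were above 0 and their median was 0.00. At least 1.5-fold apart without overlap between the groups were 2 higher probes and 0 lower ones, where all probes tested gave 1.52% higher and 1.53% lower. Without overlap at any size were 3 higher probes and 1 lower one, where all probes tested gave 25.5% and 25.2%. In limma, 0 of the 6 probes passed an adjusted p of 0.05, as did 0% of all probes tested. At an unadjusted p under 0.05, 3 of the 6 were higher and 0 lower, where all probes gave 9.25% higher and 9.28% lower. The genes were chosen on this contrast, so nothing is read from these counts.

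**Figure D3:**
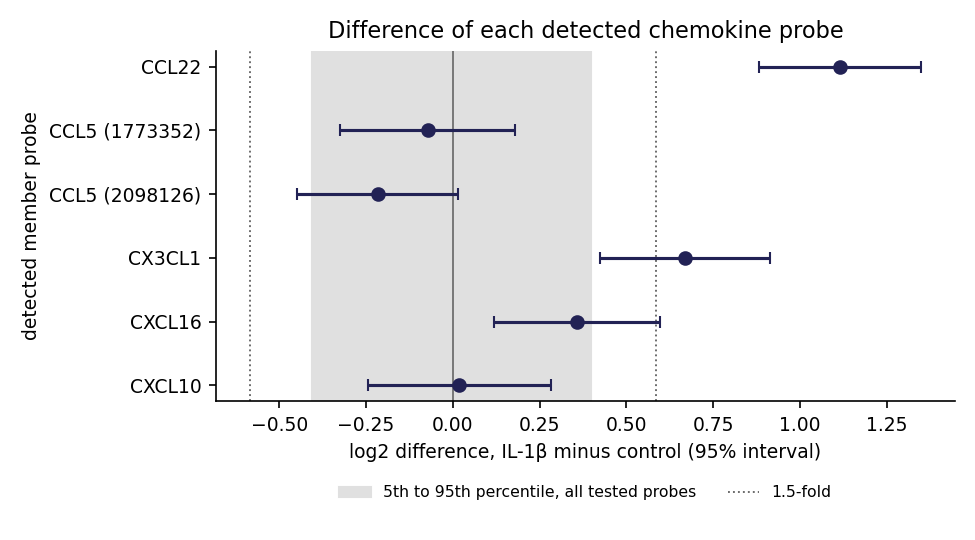
Log2 difference between IL-1β and control (horizontal axis) of the 6 detected chemokine probes, with 95% confidence intervals. The grey band spans the 5th to 95th percentile of all 13152 probes tested (-0.40 to 0.40), and CCL22 and CX3CL1 lie to its right at 1.12 and 0.67.

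The ratio of 2 probes on the same array does not move with any factor applied to the whole array, so the members were also set against each other in the raw values. The log2 ratio of CCL22 to CCL5 probe ILMN_2098126 was -1.27 and -1.34 in the controls and -0.04 and -0.11 with IL-1β, a shift of 1.23 toward CCL22. The log2 ratio of CCL22 to CX3CL1 was -0.14 and -0.21 in the controls and 0.19 and 0.29 with IL-1β, a shift of 0.41. Relative to CX3CL1, CCL22 thus stood higher on both IL-1β arrays than on both control arrays. The log2 ratio of CX3CL1 to CXCL16 shifted by 0.27, from -0.29 and -0.30 in the controls to 0.07 and -0.12. The log2 ratio of CXCL16 to CXCL10 shifted by 0.21, from 2.72 and 2.76 to 2.89 and 3.02. The 2 probes of CCL5 also shifted against each other, by 0.15, from -1.64 and -1.52 to -1.39 and -1.46, although they read the same gene. The shifts of 0.21 and 0.27 are not far above that, and the raw values were not background corrected, which matters most for dim CXCL10. The larger shifts, of CCL22 against CCL5 and CX3CL1, come from genes chosen on this contrast and were not tested. They do not show that any of these genes was unchanged.

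CCL22, CX3CL1 and CCL17 are neighbours on chromosome 16, with 6301 bp between CCL22 and CX3CL1 and 11049 bp between CX3CL1 and CCL17. The genes within 200000 bp of this cluster were looked at after the members' values were known. Of 10 other protein-coding genes there, 9 were tested, with log2 differences from -0.10 to 0.73, and 8 of the 9 were above 0, against 49.7% of all probes. That count was 4 of 9 with median scaling over all probes, 6 of 9 with raw values scaled by factors from the authors' table of group averages and 6 of 9 without control replicate 1. PLLP, which encodes a membrane protein of myelin, ends 73237 bp before CCL22 and was at 0.73 ± 0.26 (SE, adjusted p = 0.24 in limma). PLLP had 2 tested probes, and only probe ILMN_2082865 is given here. That probe was detected on both IL-1β arrays and on 1 of the 2 control arrays. Its value was 0.32 without control replicate 2 and 1.11 without control replicate 1. DOK4, which encodes a docking protein of receptor tyrosine kinases, was at 0.48 ± 0.16 (adjusted p = 0.216 in limma). It was at 0.27 without control replicate 1 and at 0.69 without control replicate 2. CCDC102A, which counts among those above 0, was at 0.00 ± 0.11. None of the 9 passed an adjusted p of 0.05 in limma, where 0% of all probes passed. CCL17, the third chemokine of the cluster, was not detected.

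**Figure D4:**
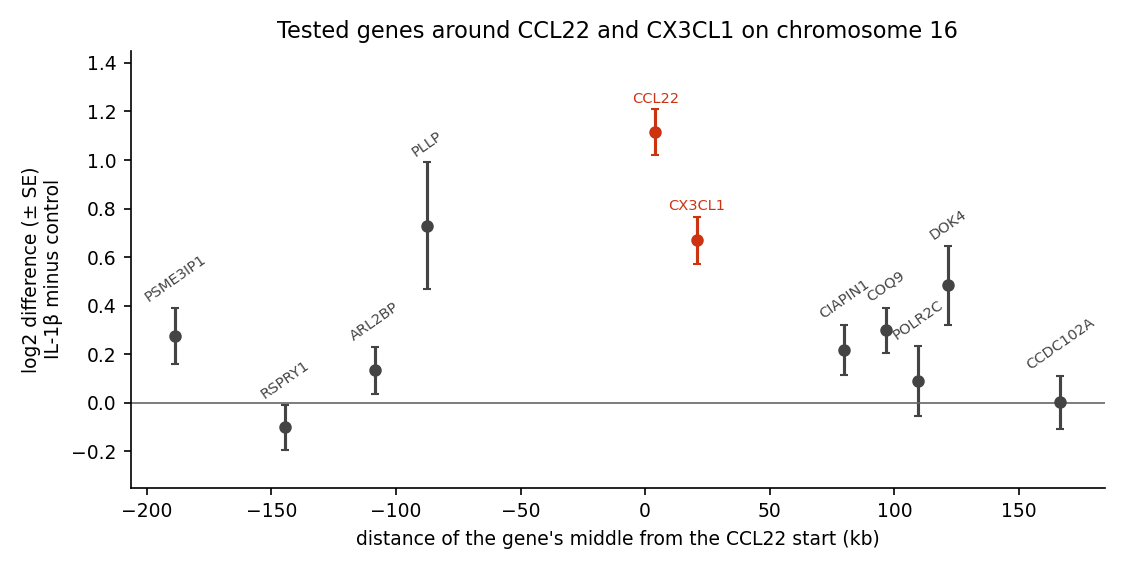
Log2 difference between IL-1β and control (± SE, n = 2 arrays per group) of the tested genes around CCL22 and CX3CL1, against distance from the CCL22 start in kb. The chemokines are in red at 1.12 and 0.67, and the other 9 genes lie between -0.10 and 0.73. PLLP is highest among them, read by 1 of its 2 tested probes, which was detected on 1 of the 2 control arrays.

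The receptors of these chemokines were mostly below detection. Of 15 receptor genes, 13 had a probe and 2 were tested, CCR6 and ACKR3, while CCR4, CX3CR1, CXCR3, CXCR4 and CXCR6 were detected on no array. ACKR3, an atypical receptor that takes up CXCL11 and CXCL12, had log2 intensities of 7.87 and 7.80 in the controls and 6.88 and 7.22 with IL-1β. It was lower by 0.79 ± 0.14 on the log2 scale (SE, adjusted p = 0.104 in limma) on both IL-1β arrays, and it was the only one of the 2 tested receptors at least 1.5-fold apart without overlap, against 1.53% of all probes in that direction. CCR6 differed by -0.03 ± 0.11, read by 1 bright probe with a mean log2 intensity of 13.8 in each group. The other 2 probes of CCR6 were detected on no array, and whether the bright probe reads CCR6 was not tested, so it does not show that the receptor is expressed. ADAM10 and ADAM17, the proteases that shed CX3CL1 and CXCL16, were tested and differed by 0.01 ± 0.13 and -0.17 ± 0.09 (log2 difference ± SE). The other probe of ADAM10 lay at 0.18, and the other probes of ADAM17 at -0.19 and 0.23. DPP4, MMP2, MMP9 and MMP14, which cleave chemokines, were detected on no array.

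None of the tested NF-κB, IRF and STAT family transcription factors passed an adjusted p of 0.05 in limma, where 0% of all probes passed. Of 12 listed, 9 were tested, 5 above and 4 below 0, with a median log2 difference of 0.02. NFKB2, the precursor of p52, was at 0.41 ± 0.10 (SE, adjusted p = 0.149 in limma) and NFKB1, the precursor of p50, at -0.39 ± 0.10 (adjusted p = 0.151). The other tested probe of NFKB2 lay at 0.31. RELA differed by 0.18 ± 0.11, RELB by -0.16 ± 0.11 and REL by -0.07 ± 0.20. REL was detected on 1 control and 1 IL-1β array, and was at 0.21 without control replicate 1 and at -0.36 without control replicate 2. IRF1, which is induced by interferons, differed by 0.02 ± 0.10, IRF3 by 0.05 ± 0.09 and IRF9, a subunit of the interferon-stimulated factor, by 0.24 ± 0.10 (adjusted p = 0.267 in limma). STAT6, which mediates IL-4 signals and is known to act on CCL17 and CCL22, differed by -0.07 ± 0.09, and IRF7 was detected on no array.

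Of 33 other chemokine ligands, 32 had a probe and 6 were tested, 2 above and 4 below 0, with a median log2 difference of 0.00. CCL23 was the only CC chemokine among them, at -0.42 ± 0.27 (SE, adjusted p = 0.473 in limma), and was detected on both control arrays and on 1 of the 2 IL-1β arrays. It was at 0.01 without IL-1β replicate 2 and at -0.86 without IL-1β replicate 1. CXCL6, a ligand of CXCR1 and CXCR2, had 2 probes, and 1 of them was detected on too few arrays to be tested. The tested probe was detected on both IL-1β arrays and on no control array. With the processing reported here it was higher by at least 1.17-fold (adjusted p = 0.141 in limma), and without background correction its log2 difference was 0.18. That bound sets its mean against the lowest detected signal of the control arrays. The CXCL1, CXCL2, CXCL5 and CXCL8 genes, which attract neutrophils, lay between -0.03 and 0.03, each read by its brightest tested probe. The 4 lists were written with earlier results of these data known. Over them together, limma gave 0 of 19 tested genes an adjusted p under 0.05, and 0% of all probes tested. At an unadjusted p under 0.05, 3 of the 19 were higher (NFKB2, IRF9 and CXCL6) and 2 lower (ACKR3 and NFKB1). All probes tested gave 9.25% higher and 9.28% lower. CXCL6 passed the filter on dim probes through the IL-1β arrays alone. Its p-values and its place in this count therefore rest on control values not above background.

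The genes whose profile over the 4 arrays was most like that of CCL22 were sought among all named probes tested, by the Euclidean distance between log2 profiles centred on their means. The nearest were CFB, complement factor B, at a distance of 0.12, CHI3L2, a chitinase-like protein, at 0.17, COG5, a subunit of a Golgi complex, at 0.19, LINC01629, a long non-coding RNA, at 0.19, and LAMP3, a lysosomal membrane protein, at 0.20. LINC01629 was detected on both IL-1β arrays and on no control array, so its distance rests partly on values not above background. With the processing reported here it was higher by at least 1.29-fold, and without background correction its log2 difference was 0.33. The log2 differences of the other 4 between IL-1β and control lay between 0.95 and 1.30, against 1.12 for CCL22. For CX3CL1 the nearest were TAF5, a subunit of the TFIID complex, at 0.04, CLDN23, a claudin, at 0.05, SOD2, the mitochondrial superoxide dismutase, at 0.07, HMMR, a hyaluronan receptor that also acts in mitosis, at 0.07, and RPL41, a ribosomal protein, at 0.07. Their log2 differences lay between 0.61 and 0.70, against 0.67 for CX3CL1. The probes of CLDN23 and RPL41 were dim, with mean log2 intensities of 6.73 and 6.46 in the controls. Without background correction their differences were 0.33 and 0.28, and that of TAF5 was 0.43. SOD2 and HMMR were then at 0.60 and 0.61, against 0.61 for CX3CL1. The likeness is over 4 arrays and is given with no test, and like differences follow from the way these genes were chosen.

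In the authors' deposited score table, which gives a signed score for each of 1440 entries with no formula stated, 4 of the 10 genes appear. CCL22 has a score of 340 in the authors' deposited table, the largest value there, which 19 entries share. CX3CL1 has 63.0 and CXCL16 has 40.9 in the authors' deposited table, while CCL5 has -76.0. In the authors' deposited table of group averages, CCL22 is at 1289 in controls and 2440 with IL-1β, a ratio of 1.89. The ratio in the authors' deposited table of averages is 1.43 for CX3CL1, 1.18 for CXCL16 and 0.805 for CCL5 probe ILMN_2098126. These directions are those found here, from the same arrays, so they are no separate evidence, and the other 6 genes are in neither table.

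**Figure D5:**
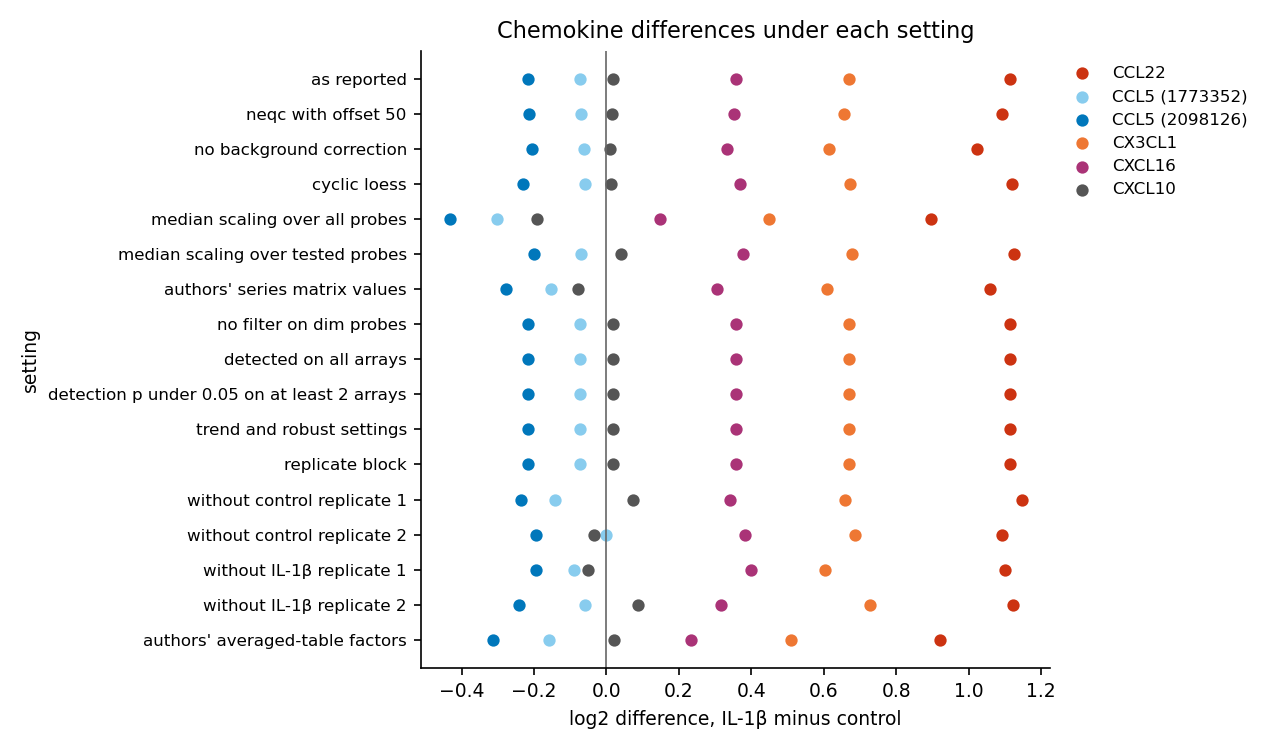
Log2 difference between IL-1β and control (horizontal axis) of the 6 detected chemokine probes under each setting of the processing (vertical axis). The order from CCL22 through CX3CL1 to CXCL16 is the same in every setting shown, both CCL5 probes stay at or below 0, and CXCL10 crosses 0.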

How the data were processed

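RNA from 2 untreated and 2 IL-1β-treated samples of MIA PaCa-2 cells was measured, 1 array per sample. The deposited raw values are linear intensities, 1 for each probe on each array, and beside each stands a detection p-value, per the file headers. No source used here names the scanner software. In the authors' series matrix, intensities had 1 constant subtracted and 1 factor applied per array, as read from the deposited values, so that each array has a mean of 322 (medians 8.92, 9.17, 10.1 and 10.9). The authors' deposited score table states neither its formula nor its scale.

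The raw intensities were background corrected, quantile normalized and log2 transformed by the neqc function (limma 3.58.1, R 4.3.3) at an offset of 16. Probes with a detection p below 0.01 on at least 2 arrays were tested, 13152 of 48803. The 2 groups entered 1 limma fit (lmFit, eBayes), with two-sided p-values and the Benjamini-Hochberg adjustment across all tested probes at 0.05. The fit was tested on simulated data. The median SE was 0.111 on the log2 scale, and the number of arrays limits the precision. Probes at least 1.5-fold apart without overlap were counted with no test. Gene names came from the array's probe-to-gene table, in which 27578 probes have 1 gene, 13 have several and 21212 have none listed. The members, the lists of related genes and cell markers, and the tests were chosen with earlier results of these data known. The named genes are all members, every tested gene of the 4 other lists read by its brightest tested probe, and the 5 genes nearest in profile to CCL22 and to CX3CL1; the neighbours on chromosome 16 were added after the data were seen. Alternatives changed the background correction, scaling, filter and variance model, or added a replicate block, and arrays were omitted singly.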

Additional observations from a re-analysis of the deposited data

How the results depend on the processing

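The log2 differences of CCL22 (0.90 to 1.15), CX3CL1 (0.45 to 0.73) and CXCL16 (0.15 to 0.40) stayed above 0 under all 16 alternatives, and those of CCL5 stayed below 0 (-0.43 to -0.20 for ILMN_2098126 and -0.30 to 0.00 for ILMN_1773352). An adjusted p of 0.05 in limma was passed by CCL22 in 7 of the 16, CX3CL1 in 4, CXCL16 in 2 and CCL5 probe ILMN_2098126 in 1. CXCL10 turned to -0.19 with median scaling over all probes, which shifted the median of the tested probes by -0.22, to -0.080 in the authors' series matrix values, and lay between -0.050 and 0.088 when each array was left out. The cause was not tested. The count of probes past an adjusted p of 0.05 was 0 as reported and 91 with an offset of 50, 624 with no background correction, 919 with median scaling over all probes, 10 with median scaling over tested probes, 66 with detection on all arrays, 728 with trend and robust settings and 1097 with scaling factors taken from the averaged table, an alternative chosen after seeing the data. With 1 array omitted it was 0 each time. The count of probes at least 1.5-fold apart without overlap was 401, and became 157 with an offset of 50, 47 with no background correction, 873 with median scaling over all probes, 222 with detection on all arrays and 66 with the averaged-table factors. It was 682 in the authors' series matrix values, 875 with no filter, 744 with detection p under 0.05 on at least 2 arrays, and 533 to 616 with 1 array left out. The share of these that were lower was 50.1%, but 92.2% with median scaling over all probes, 71.7% in the series matrix values and 72.7% with the averaged-table factors. In the other direction, it was 41% with median scaling over tested probes and 42.6% with no background correction.

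Among the 4 lists of related genes, 1 gene (ACKR3) was at least 1.5-fold apart without overlap. The count was 0 with no background correction or the averaged-table factors, 2 with either median scaling, no filter or detection p under 0.05, 3 in the series matrix values, and 1 to 3 with 1 array left out. Past an adjusted p of 0.05 in limma were 0 as reported and 2 (ACKR3 and NFKB1) with no background correction, median scaling over all probes, trend and robust settings or the averaged-table factors, and 0 with 1 array left out. The replicate numbers are not said to pair the samples, and the deviations of same-numbered arrays correlated at -0.09. With the number as a replicate block 0 probes passed and 401 were at least 1.5-fold apart without overlap, and no call changed. Signal over background limits the 8 chemokine probes detected on no array, for which no difference could be measured.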
